A study of Homo sapiens with 8 samples.

Results

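RNA levels of 41 lysosome and autophagy genes were examined in the lung adenocarcinoma cell line H3122, which carries the EML4-ALK fusion kinase, and in its ceritinib-resistant derivatives LR2 and LR3. The genes were chosen by symbol, with earlier results of these data known, so their shares beside those of all genes are descriptive. Each was read from the probe sets whose only gene symbol was that gene, and its brightest over all arrays stood for it. All 41 had such a probe set, out of 18132 genes on the array, and all 41 were among the 10527 genes bright enough to test, with a signal above 5.36 log2 units in at least 2 arrays. LR2 cells were measured after 6 h with 1000 nM crizotinib, after 6 h with 1000 nM ceritinib and untreated. LR3 cells were measured with the same dose and time of ceritinib and untreated. Parental H3122 cells were measured after 6 h with 1000 nM crizotinib, after 6 h with 1000 nM ceritinib and untreated. Both agents inhibit the ALK kinase, all cells were grown in RPMI with serum, and ALK rearrangement is common to the 3 lines. Each of these 8 conditions had 1 array of biotin-labelled total RNA. The labels do not say whether LR2 and LR3 are single clones or how they were selected. Each condition is 1 sample, with no separately grown cultures among the labels, so p-values reflect the spread between these arrays alone. In bulk RNA, fewer cells that express a gene and less of its RNA per cell cannot be told apart.

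All 8 epithelial and lung adenocarcinoma markers, among them EPCAM, the keratins KRT7 and KRT8 and the lung factor NKX2-1, were above the floor of 5.36 in every array, between 6.78 and 13.98. The 4 fibroblast markers stayed below it in every array, as did the leukocyte markers PTPRC, CD3E and CD14 and the endothelial marker PECAM1. CD79A (5.36 to 5.79), VWF (5.21 to 5.70) and CDH5 (6.11 to 6.43) lay near or above the floor in all 3 lines. The median signal of an array was 5.46 in LR2 with ceritinib, and 5.31 to 5.36 in the other 7 arrays.

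Lysosomes are acidic organelles in which hydrolases break down proteins, glycans and lipids. A proton pump, the V-ATPase, keeps them acidic, and heavily glycosylated membrane proteins such as LAMP1 and LAMP2 line them. Autophagy delivers cytoplasm to lysosomes: ULK1 kinase and a lipid kinase complex with BECN1 start a membrane, WIPI and ATG2 proteins help it grow, and the ATG5, ATG7 and ATG16L1 machinery attaches ATG8 family proteins such as MAP1LC3B to it. Receptors such as SQSTM1 then link cargo to those proteins. TFEB, TFE3 and MITF are related transcription factors that activate many of these genes by binding a short DNA element, the CLEAR motif, and growth signalling through mTORC1 restrains them. In many cell types, forkhead factors of the FOXO group also activate several autophagy genes when PI3K and AKT signalling falls.

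Of the 41 genes, 33 had a promoter in RefSeq's table for GRCh38.p14, given as 250 bases before to 50 bases after the transcription start. UVRAG, ATP6V1H, PSAP, CTSB, CTSS, ATP6V1A, LAMP2 and HEXA had none there. The CLEAR core TCACGTGA was present in the promoters of LAMP1, ATP6V0D1, MCOLN1 and CTSA, 4 of 33 members, and in 0.98% of all 35116 promoters of the table. Both strands were searched, and this motif reads the same on both. For this motif and those below, a member counted if any of its promoters held the motif. The 33 members had 43 promoters, while the share of all is per promoter, so the units differ. These stretches are shown because they carry the recognition letters of the TFEB family, and capitals mark the motif.
LAMP1, chr13:113297185-113297268, plus strand: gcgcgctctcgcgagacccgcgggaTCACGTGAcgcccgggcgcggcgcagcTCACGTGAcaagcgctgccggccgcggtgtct
ATP6V0D1, chr16:67481185-67481242, minus strand: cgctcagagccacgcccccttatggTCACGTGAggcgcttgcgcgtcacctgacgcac
MCOLN1, chr19:7522557-7522641, plus strand: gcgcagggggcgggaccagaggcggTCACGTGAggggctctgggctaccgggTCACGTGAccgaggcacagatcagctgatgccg
CTSA, chr20:45891284-45891341, plus strand: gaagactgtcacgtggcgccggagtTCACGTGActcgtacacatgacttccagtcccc

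The shorter E-box CACGTG lies inside the CLEAR core, and it was present in 7 of 33 members, those 4 and ATG14, CTSD and NEU1, and in 7.26% of all promoters. The forkhead core TGTTTAC, or GTAAACA on the other strand, was present in CTSL alone of the 33, and in 3.42% of all promoters. The cyclic AMP response element TGACGTCA was present in GABARAPL1 and MITF and in 1.85% of all promoters. The choice of these motifs followed a look at the promoters. The 150 bases upstream of the start are shown for ULK1, WIPI1, GABARAPL1 and NBR1, since these were the 4 members called higher with crizotinib. Capitals mark the cyclic AMP response element, and the stretches of ULK1, WIPI1 and NBR1 held none of the motifs searched. A match is a description of letters and not of binding.
ULK1, chr12:131894472-131894621, plus strand: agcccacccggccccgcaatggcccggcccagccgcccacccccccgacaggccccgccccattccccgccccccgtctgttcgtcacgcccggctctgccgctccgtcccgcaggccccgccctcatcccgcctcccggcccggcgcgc
WIPI1, chr17:68457497-68457646, minus strand: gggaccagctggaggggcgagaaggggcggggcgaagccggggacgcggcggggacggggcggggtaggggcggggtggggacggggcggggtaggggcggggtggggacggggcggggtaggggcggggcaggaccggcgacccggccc
GABARAPL1, chr12:10212727-10212876, plus strand: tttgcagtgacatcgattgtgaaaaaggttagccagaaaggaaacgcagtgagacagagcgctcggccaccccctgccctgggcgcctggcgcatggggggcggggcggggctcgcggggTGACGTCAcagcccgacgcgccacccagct
NBR1, chr17:43170259-43170408, plus strand: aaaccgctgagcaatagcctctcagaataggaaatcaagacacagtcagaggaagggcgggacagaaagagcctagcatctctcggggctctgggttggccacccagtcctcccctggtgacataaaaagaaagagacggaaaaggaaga

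**Figure D1:**
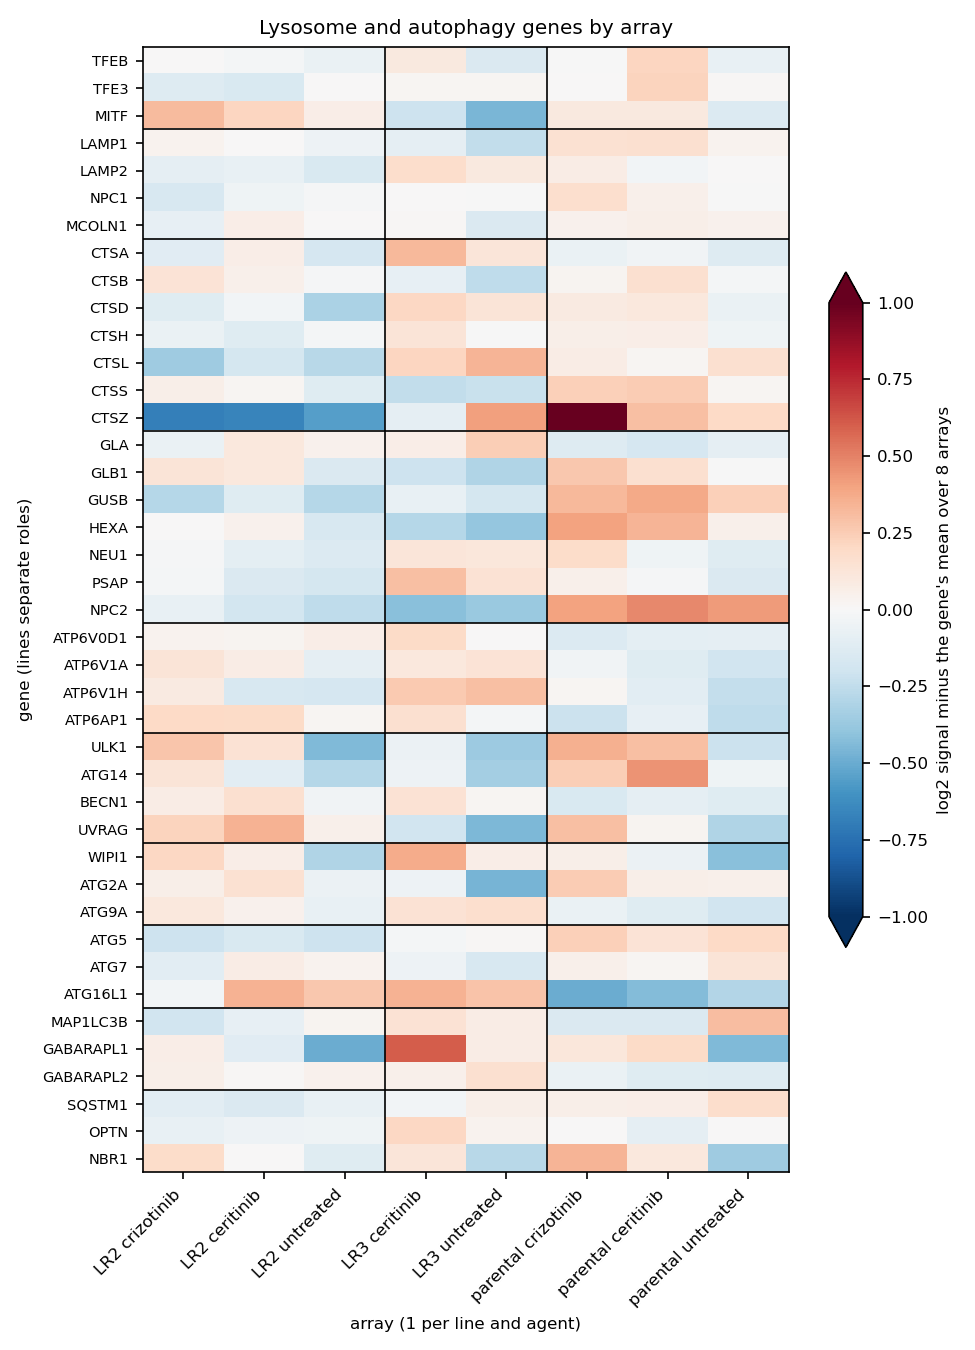
Log2 signal of each of the 41 genes (rows, grouped by role) in each of the 8 arrays (columns), minus that gene's mean over the 8 arrays. CTSZ spans the widest range, 1.75 log2 units, and NPC2 and GUSB are above their mean in all 3 parental arrays.

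In LR2 cells, lysosomal hydrolases and the cholesterol carrier NPC2 were among the genes that fell, while ATG16L1 of the conjugation machinery rose. limma called 9 of 41 members at an adjusted p under 0.05 (22%), against 22.5% of all genes tested, so the total was near the background. Of the 9, 7 were lower in LR2 than in parental cells (17.1% of members, 9.68% of all genes) and 2 were higher (4.88% of members, 12.8% of all genes). The median difference of the 41 members was -0.08 log2 units, beside 0.02 for all genes. The 3 LR2 arrays lay below all 3 parental arrays in 9 members, 22%, against 13.8% of all genes, and above all of them in 6, 14.6%, against 18.1% of all genes. The count was 4 without either crizotinib array and 5 without the LR2 untreated array. The calls of CTSZ, NPC2, GUSB and ATG16L1 were kept under all 17 alternatives, those of ATG5 and ATP6AP1 under 14, CTSL under 13, HEXA under 9 and ATG14 under 4.

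In LR3 cells, NPC2 and several glycosidases fell, while a V-ATPase subunit, GABARAPL1, WIPI1 and ATG16L1 rose. limma called 16 members (39%), against 21.6% of all genes. Of these, 8 were higher (19.5% of members, 9.53% of all genes) and 8 lower (19.5% of members, 12.1% of all genes), and the median over the 41 was 0.01, beside 0.01 for all genes. Both LR3 arrays lay above all parental arrays in 16 members (39%, against 24.7% of all genes) and below them in 13 (31.7%, against 23.1% of all genes). The number of calls rests on few arrays. It was 3 without the LR3 untreated array, 4 without the LR3 ceritinib array, 7 without either crizotinib array, 8 without the parental untreated array and 9 without the parental ceritinib or the LR2 untreated array. Of the 17 alternatives, 16 kept NPC2 and ATG16L1, 15 kept ATP6V1H, 14 kept GUSB, HEXA and WIPI1, and 11 kept GABARAPL1 and GLB1. The other 8 calls were kept under 3 to 9. With the matched LR3 and parental arrays alone 0 members and 0 genes were called, and with no filter or no agent term 9 members were. The LR2 and LR3 comparisons share the parental arrays, so the values of each are given side by side and their overlap is not given as a result.

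LR3 and LR2 also differed from each other. limma called 10 members (24.4%, against 19.6% of all genes). Cathepsins, GABARAPL1 and a V-ATPase subunit were among the 8 that were higher in LR3 (19.5% of members, 7.29% of all genes), and MITF and UVRAG were the 2 that were lower (4.88% of members, 12.3% of all genes). Without the LR3 untreated array 1 member was called, without the LR3 ceritinib array 3, without the LR2 untreated array 4 and without the LR2 ceritinib array 6. With the matched LR3 and LR2 arrays alone 1 member was called, and with no agent term 3. The calls of CTSL and MITF were kept under 15 of 17 alternatives, and the other 8 under 7 to 14. The median difference of the members was 0.08, beside -0.02 for all genes. The LR3 arrays lay above all LR2 arrays in 17 members (41.5%, against 20.9% of all genes) and below them in 8 (19.5%, against 24.7% of all genes).

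**Figure D2:**
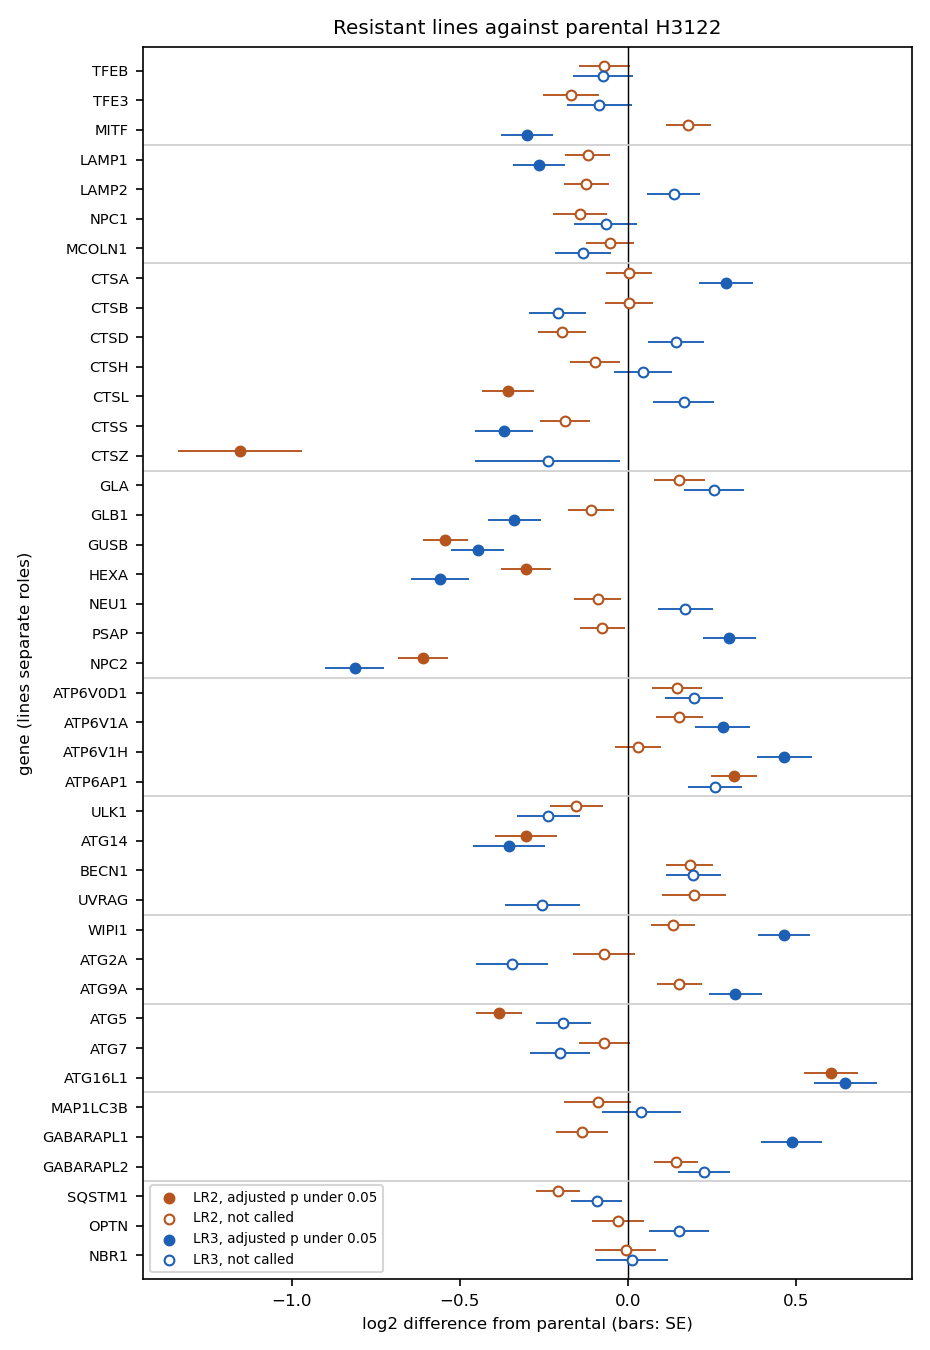
Log2 difference of LR2 (brown) and LR3 (blue) from parental cells for each of the 41 genes, from the additive limma model over 8 arrays, with bars of 1 SE. Filled points passed an adjusted p of 0.05. CTSZ in LR2, at -1.15, has the largest difference of those shown.

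Array values are log2 signals. Those of LR2 and parental cells are in the order crizotinib, ceritinib and untreated, and those of LR3 in the order ceritinib and untreated. The ± sign precedes limma's standard error, and adjusted p-values cover all genes tested.

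Of the transcription factors, TFEB had 5.87, 5.85 and 5.80 in LR2, 5.96 and 5.72 in LR3, and 5.86, 6.08 and 5.79 in parental cells. These ranges overlap, and the difference was -0.07 ± 0.08 in LR2 and -0.08 ± 0.09 in LR3, neither of which passed the test. TFE3 had 5.54, 5.52 and 5.67 in LR2, 5.69 and 5.69 in LR3, and 5.67, 5.89 and 5.68 in parental cells. These values, between 5.52 and 5.89, overlap and lie close to the floor of 5.36, where differences may be compressed, and TFE3 was called in neither line. MITF had 6.10 and 5.85 in LR3, 6.62, 6.52 and 6.37 in LR2, and 6.40, 6.40 and 6.17 in parental cells. Both LR3 arrays were below every other array. MITF fell by 0.30 ± 0.08 in LR3 against parental cells (adjusted p = 0.0305) and by 0.48 ± 0.08 in LR3 against LR2 (adjusted p = 0.00498). The call against parental cells was lost when any 1 array other than LR2 ceritinib was left out.

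LAMP1, an abundant lysosomal membrane glycoprotein, had 10.92, 10.89 and 10.84 in LR2, 10.80 and 10.64 in LR3, and 11.04, 11.05 and 10.92 in parental cells. LR3 was lowest, with no overlap with parental cells. LAMP1 fell by 0.27 ± 0.08 in LR3 (adjusted p = 0.045), and its difference of -0.12 ± 0.07 in LR2 did not pass. The LR3 call was kept under 6 of 17 alternatives, and leaving out any 1 array other than LR2 ceritinib ended it. Without suffixed probe sets limma gave -0.215 in LR3, which did not pass (adjusted p = 0.0965). LAMP2, the cholesterol transporter NPC1 and the calcium channel MCOLN1 were not called in either line on their brightest probe sets, with differences between -0.14 and 0.14.

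Cathepsins are the lysosomal proteases. CTSZ, a cysteine carboxypeptidase, had 6.79, 6.82 and 6.93 in LR2, 7.39 and 7.89 in LR3, and 8.54, 7.78 and 7.68 in parental cells. All LR2 arrays were below all others, and the parental crizotinib array stood above the rest. CTSZ was 2.22-fold lower in LR2 than in parental cells, a difference of -1.15 ± 0.18 (adjusted p = 0.00434) that ranged under the 17 alternatives between -1.38 and -0.86. It was 0.91 ± 0.22 higher in LR3 than in LR2 (adjusted p = 0.0223), and its difference between LR3 and parental cells, -0.24 ± 0.22, did not pass.

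CTSL, a cysteine endopeptidase, had 6.12 and 6.25 in LR3, 5.55, 5.73 and 5.63 in LR2, and 5.98, 5.93 and 6.07 in parental cells. The lines did not overlap, with LR3 above parental cells and LR2 below them. CTSL fell by 0.36 ± 0.08 in LR2 (adjusted p = 0.0146) and was 0.52 ± 0.09 higher in LR3 than in LR2 (adjusted p = 0.00635). Its LR3 difference from parental cells, 0.17 ± 0.09, did not pass. CTSA, the protective protein that stabilises NEU1 and GLB1, rose by 0.29 ± 0.08 in LR3 (adjusted p = 0.0373), and CTSS, a cysteine protease that also works at neutral pH, fell by 0.37 ± 0.09 in LR3 (adjusted p = 0.0219). The CTSS call was lost with its probe set without suffix, at -0.13 (adjusted p = 0.326), and with the mean of its probe sets, at -0.25 (adjusted p = 0.0517). The aspartic protease CTSD was 0.34 ± 0.08 higher in LR3 than in LR2 (adjusted p = 0.0257), with both of its other probe sets called the same way. CTSB and CTSH were called in no line comparison, with differences from parental cells between -0.21 and 0.04.

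Of the 7 genes for glycan and lipid breakdown, limma called 3 lower in LR2 (42.9%, against 9.68% of all genes), and 4 lower (57.1%, against 12.1%) and 1 higher (14.3%, against 9.53%) in LR3. NPC2, which carries cholesterol out of the lysosomal lumen together with NPC1, had 11.10, 10.99 and 10.92 in LR2, 10.76 and 10.81 in LR3, and 11.58, 11.66 and 11.60 in parental cells. Every resistant array was below every parental array, and LR3 was lower than LR2. NPC2 was 1.53-fold lower in LR2 (-0.61 ± 0.07, adjusted p = 0.00141) and 1.76-fold lower in LR3 (-0.81 ± 0.09, adjusted p = 0.000944). Its other tested probe set fell by 0.67 ± 0.07 in LR2 and by 0.90 ± 0.09 in LR3, and the mean of all its probe sets, dim ones included, gave -0.31 in LR2 and -0.48 in LR3, both called. The LR3 call was lost in 1 alternative, the matched LR3 and parental arrays alone (adjusted p = 0.0966).

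GUSB, the beta-glucuronidase, had 9.66, 9.82 and 9.66 in LR2, 9.87 and 9.77 in LR3, and 10.27, 10.32 and 10.18 in parental cells. Again all resistant arrays were below all parental ones. GUSB fell by 0.54 ± 0.07 in LR2 (adjusted p = 0.00145) and by 0.45 ± 0.08 in LR3 (adjusted p = 0.00719). GUSB has a single probe set here.

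HEXA, the alpha subunit of the hexosaminidase that degrades GM2 ganglioside, had 9.57, 9.61 and 9.41 in LR2, 9.28 and 9.18 in LR3, and 9.97, 9.91 and 9.62 in parental cells. LR3 was lowest throughout, and the highest LR2 array was just below the lowest parental array. HEXA fell by 0.56 ± 0.09 in LR3 (adjusted p = 0.00439) and by 0.30 ± 0.07 in LR2 (adjusted p = 0.0225). The brightest HEXA probe set has the suffix _x_at, which marks probes that can also match other transcripts. The dim probe set of HEXA without that suffix gave -0.12 in LR3 (adjusted p = 0.51) and 0.14 in LR2 (adjusted p = 0.333), so both calls were lost with it. The mean of all HEXA probe sets gave -0.35 in LR3 (adjusted p = 0.0131) and -0.11 in LR2 (adjusted p = 0.248). Of the 4 other HEXA probe sets tested, 3 had the same sign as the brightest in LR2 and 4 in LR3, and 2 were called lower in each line. GLB1, the beta-galactosidase, fell by 0.34 ± 0.08 in LR3 (adjusted p = 0.0218), with both other probe sets called lower too. PSAP, the precursor of the saposins that help these enzymes reach lipids, rose by 0.30 ± 0.08 in LR3 against parental cells (adjusted p = 0.0303) and by 0.38 ± 0.08 against LR2 (adjusted p = 0.0129). GLA (0.15 in LR2, 0.26 in LR3) and NEU1 (-0.09 in LR2, 0.17 in LR3) were called in no line comparison. Of the 2 other GLA probe sets, 1 was called higher in LR3 against parental cells and 1 against LR2.

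The 4 V-ATPase members had positive differences in LR2, as did 55.7% of all genes, and in LR3, as did 51.3% of all genes. Of 13 other V-ATPase subunits tested, 4 had negative differences in LR2 and 4 in LR3. ATP6V1H, a regulatory subunit of the cytosolic V1 sector, had 8.20 and 8.24 in LR3, 8.03, 7.78 and 7.77 in LR2, and 7.96, 7.83 and 7.70 in parental cells. Both LR3 arrays were above all others, and LR2 overlapped parental cells. ATP6V1H rose by 0.47 ± 0.08 in LR3 against parental cells (adjusted p = 0.00721) and by 0.44 ± 0.08 against LR2 (adjusted p = 0.00882). ATP6V1A, the catalytic subunit, rose by 0.28 ± 0.08 in LR3 (adjusted p = 0.045), and the accessory subunit ATP6AP1 rose by 0.32 ± 0.07 in LR2 (adjusted p = 0.0143). The ATP6V1A call was kept under 5 of 17 alternatives, and was lost at 0.135 without suffixed probe sets (adjusted p = 0.354) and at 0.19 with the mean of probe sets (adjusted p = 0.105). The membrane sector subunit ATP6V0D1 was not called on its brightest probe set, with 0.15 in LR2 and 0.20 in LR3. Its 6 other probe sets had the same sign in both lines, and 3 of them were called higher in LR2 and 3 in LR3.

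Among the genes that start an autophagosome, ATG14, which directs the lipid kinase complex to autophagy, was called lower in both lines, by 0.30 ± 0.09 in LR2 (adjusted p = 0.0473) and 0.35 ± 0.11 in LR3 (adjusted p = 0.0493). Both were close to the threshold, and leaving out any 1 parental array ended either call, at -0.20 in LR2 and -0.22 in LR3 without the parental ceritinib array. The mean of its probe sets gave -0.18 in LR2 and -0.22 in LR3, neither of which passed. UVRAG, an alternative partner of the same complex, had 5.97 and 5.71 in LR3 and 6.38, 6.51 and 6.21 in LR2, beside 6.46, 6.19 and 5.86 in parental cells. The LR3 and LR2 arrays did not overlap, and UVRAG was 0.45 ± 0.11 lower in LR3 than in LR2 (adjusted p = 0.0259), a call lost with the mean of its probe sets (-0.275, adjusted p = 0.0904). Neither line differed from parental cells in UVRAG beyond the test, and ULK1 (-0.15 in LR2, -0.24 in LR3) and BECN1 (0.18 in LR2, 0.19 in LR3) were called in no line comparison. The 5 other BECN1 probe sets had the same sign as the brightest in both lines, and 2 of them were called higher in LR2 and 3 in LR3.

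WIPI1, which binds phosphatidylinositol 3-phosphate on the growing membrane, had 7.43 and 7.13 in LR3, 7.27, 7.13 and 6.76 in LR2, and 7.12, 7.0 and 6.64 in parental cells. The LR3 arrays lay above all parental arrays, although the untreated LR3 value of 7.13 barely exceeded the parental crizotinib value of 7.12. WIPI1 rose by 0.46 ± 0.08 in LR3 against parental cells (adjusted p = 0.00551) and by 0.33 ± 0.08 against LR2 (adjusted p = 0.0203), and its other probe set was called the same way in both. The lipid scramblase ATG9A rose by 0.32 ± 0.08 in LR3 (adjusted p = 0.0257). ATG2A, a lipid transfer protein, had -0.07 in LR2 and -0.34 in LR3 (adjusted p = 0.056) and was not called.

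ATG16L1, which places the conjugation machinery on the membrane, had 7.07, 7.44 and 7.36 in LR2, 7.44 and 7.38 in LR3, and 6.60, 6.66 and 6.80 in parental cells. Every resistant array exceeded every parental array. ATG16L1 rose 1.52-fold in LR2 (0.60 ± 0.08, adjusted p = 0.00207) and 1.57-fold in LR3 (0.65 ± 0.09, adjusted p = 0.00335), and its other probe set rose by 0.69 ± 0.12 in LR2 and 0.68 ± 0.14 in LR3. Its LR3 call was lost with the matched arrays alone (adjusted p = 0.0966). Its partner ATG5 had 8.52, 8.58 and 8.52 in LR2, 8.71 and 8.74 in LR3, and 8.97, 8.87 and 8.93 in parental cells. Again no array of either resistant line reached the parental range, from the other side. ATG5 fell by 0.38 ± 0.07 in LR2 (adjusted p = 0.00682), and its LR3 difference of -0.19 ± 0.08 did not pass. Of the 2 other ATG5 probe sets, 1 had the opposite sign in LR2 (0.22 ± 0.07, adjusted p = 0.0685), and the mean of the 3 gave -0.15 in LR2, which did not pass (adjusted p = 0.097). ATG7, the activating enzyme, was not called, at -0.07 in LR2 and -0.20 in LR3. Of its 2 other probe sets, 1 was called lower in LR3 than in LR2.

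GABARAPL1, an ATG8 family protein, had 7.33 and 6.80 in LR3, 6.79, 6.61 and 6.23 in LR2, and 6.84, 6.92 and 6.28 in parental cells. The LR3 ceritinib array was highest, and the untreated LR3 array lay just below the treated parental arrays. GABARAPL1 rose by 0.49 ± 0.09 in LR3 against parental cells (adjusted p = 0.00904) and by 0.62 ± 0.09 against LR2 (adjusted p = 0.00317). Its brightest probe set also has the suffix _x_at. The probe set without that suffix gave 0.25 against parental cells (adjusted p = 0.11) and 0.16 against LR2 (adjusted p = 0.312), and the mean of all its probe sets gave 0.24 (adjusted p = 0.122) and 0.27 (adjusted p = 0.0907), so neither call held with either choice. MAP1LC3B had 8.49, 8.60 and 8.71 in LR2, 8.83 and 8.76 in LR3, and 8.54, 8.54 and 8.99 in parental cells. Both resistant lines overlapped parental cells, and the LR3 arrays lay above the LR2 arrays, by 0.13 in the fit. Of the 3 other MAP1LC3B probe sets, 1 had the same sign as the brightest for LR3 against LR2. For LR3 against parental cells 0 of the 3 did. In the line comparisons, neither MAP1LC3B nor GABARAPL2 (0.14 in LR2, 0.23 in LR3) was called.

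No autophagy receptor was called in a line comparison. SQSTM1, the receptor for ubiquitinated cargo that is itself degraded by autophagy, had 11.79, 11.75 and 11.82 in LR2, 11.87 and 11.95 in LR3, and 11.95, 11.96 and 12.07 in parental cells. LR2 lay below parental cells in every array, with a difference of -0.21 ± 0.07 that did not pass, and 2 fainter SQSTM1 probe sets passed in LR2 at -0.27 and -0.28. The fainter of the pair passed in LR3 too, at -0.38. RNA values say nothing of the protein, by which autophagy is usually followed. The receptors OPTN and NBR1 differed from parental cells by -0.03 to 0.15.

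**Figure D3:**
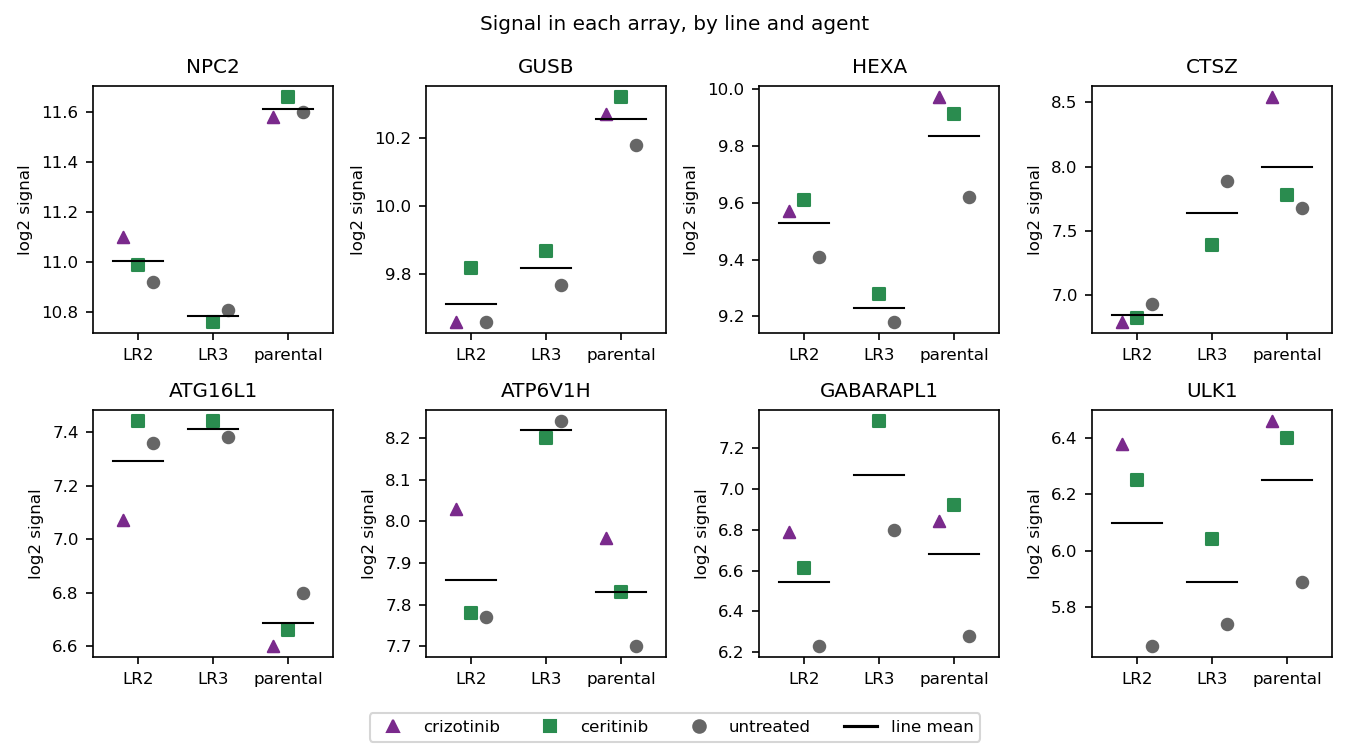
Log2 signal of 8 members in each array, by line on the horizontal axis, with symbols for agent and a line at the mean of each line's arrays; each panel has its own vertical range. NPC2, GUSB and ATG16L1 separate both resistant lines from parental cells, and the untreated array is lowest within each line for ULK1 and GABARAPL1.

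The agent comparisons asked which of these genes differed between cells given an agent for 6 h and untreated cells, across lines. ALK activity was not measured in these arrays. With crizotinib, ULK1, GABARAPL1, NBR1 and WIPI1 rose and no member was called lower. These 4 of 41 are 9.76% of members, against 3.76% of all genes called in either direction and 2.82% called higher, with 0.94% called lower. Both crizotinib arrays were above all untreated arrays in 10 members (24.4%, against 16.7% of all genes) and below them in 1, MAP1LC3B (2.44%, against 13% of all genes). The median member difference was 0.11, beside 0.02 for all genes, and 32 of 41 differences were positive (78% against 54.7% of all genes). LR3 had no crizotinib array. Leaving out the parental crizotinib, parental untreated, LR2 crizotinib or LR2 untreated array ended all 4 calls, and with them every call among all genes. The count was also 0 with no line term or with the matched arrays alone, and 2 without suffixed probe sets.

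ULK1, the kinase that starts autophagy, had 6.38 with crizotinib and 5.66 untreated in LR2, and 6.46 with crizotinib and 5.89 untreated in parental cells. With ceritinib it had 6.25 in LR2, 6.04 in LR3 and 6.40 in parental cells, and untreated LR3 cells had 5.74. Each treated array was above each untreated array. ULK1 rose 1.52-fold with crizotinib (0.60 ± 0.09, adjusted p = 0.0298). Its difference with ceritinib, 0.47 ± 0.08, was positive in 3 of 3 lines but missed the threshold (adjusted p = 0.0641).

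GABARAPL1 had 6.79 with crizotinib and 6.23 untreated in LR2, and 6.84 with crizotinib and 6.28 untreated in parental cells, the same step of 0.56 in both. With ceritinib it was 0.38 above untreated cells in LR2, 0.53 in LR3 and 0.64 in parental cells. Within each line the untreated array was lowest. The crizotinib rise was 0.56 ± 0.09 (adjusted p = 0.0305), and that of the probe set without suffix was 0.32 and did not pass (adjusted p = 0.102). The ceritinib difference was 0.52 ± 0.08 (adjusted p = 0.0641).

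WIPI1 was 0.51 higher with crizotinib than untreated in LR2 and 0.48 higher in parental cells, and with ceritinib 0.37 higher in LR2, 0.30 in LR3 and 0.36 in parental cells. It rose by 0.48 ± 0.08 with crizotinib (adjusted p = 0.0298), as did its other probe set (0.55 ± 0.09), while 0.34 ± 0.07 with ceritinib did not pass (adjusted p = 0.0746). NBR1, a receptor for ubiquitinated cargo related to SQSTM1, had 7.98 with crizotinib, 7.80 with ceritinib and 7.68 untreated in LR2, and 8.14, 7.90 and 7.44 in the same order in parental cells. In LR3 it had 7.92 with ceritinib and 7.52 untreated. All treated arrays were above all untreated ones. NBR1 rose by 0.52 ± 0.11 with crizotinib (adjusted p = 0.0432), a call kept under 4 of 16 alternatives, and its ceritinib difference of 0.33 ± 0.09 did not pass (adjusted p = 0.127). The brightest NBR1 probe set has the suffix _x_at. Without suffixed probe sets NBR1 was not bright enough to test, which leaves 16 alternatives.

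With ceritinib, limma called none of the members and none of the 10527 genes (0%), although an intensity trend in the variance model gave 1 member and 61 genes. At an unadjusted p under 0.05 there were 14 members and 2017 genes (19.2%). All 14 members were higher than untreated in 3 of 3 lines. The same arrays picked these members, so that agreement between lines is no separate support. The 14 were GABARAPL1, ULK1, WIPI1, NBR1, ATG14, UVRAG, ATG2A, TFEB, MITF, CTSA, CTSD, GLB1, HEXA and ATP6AP1. Their differences lay between 0.17 and 0.52. The ceritinib arrays were above all untreated arrays in 3 members, TFEB, ULK1 and NBR1 (7.32%, against 7.43% of all genes), and below them in none (0%, against 2.24% of all genes). Over all members the median was 0.08, beside 0.04 for all genes, and 34 of 41 were positive (82.9% against 63.6% of all genes). The LR2 ceritinib array, whose median signal is the highest of the 8, exceeded the LR2 untreated array by a median of 0.08 over the members and of 0.10 over all genes. The member median of the ceritinib difference was 0.10 without that array and 0.02 after median centring of each array. In LR3 the ceritinib array exceeded the untreated array by a median of 0.10 over the members and 0.01 over all genes, and in parental cells by 0.10 over the members and 0.02 over all genes.

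**Figure D4:**
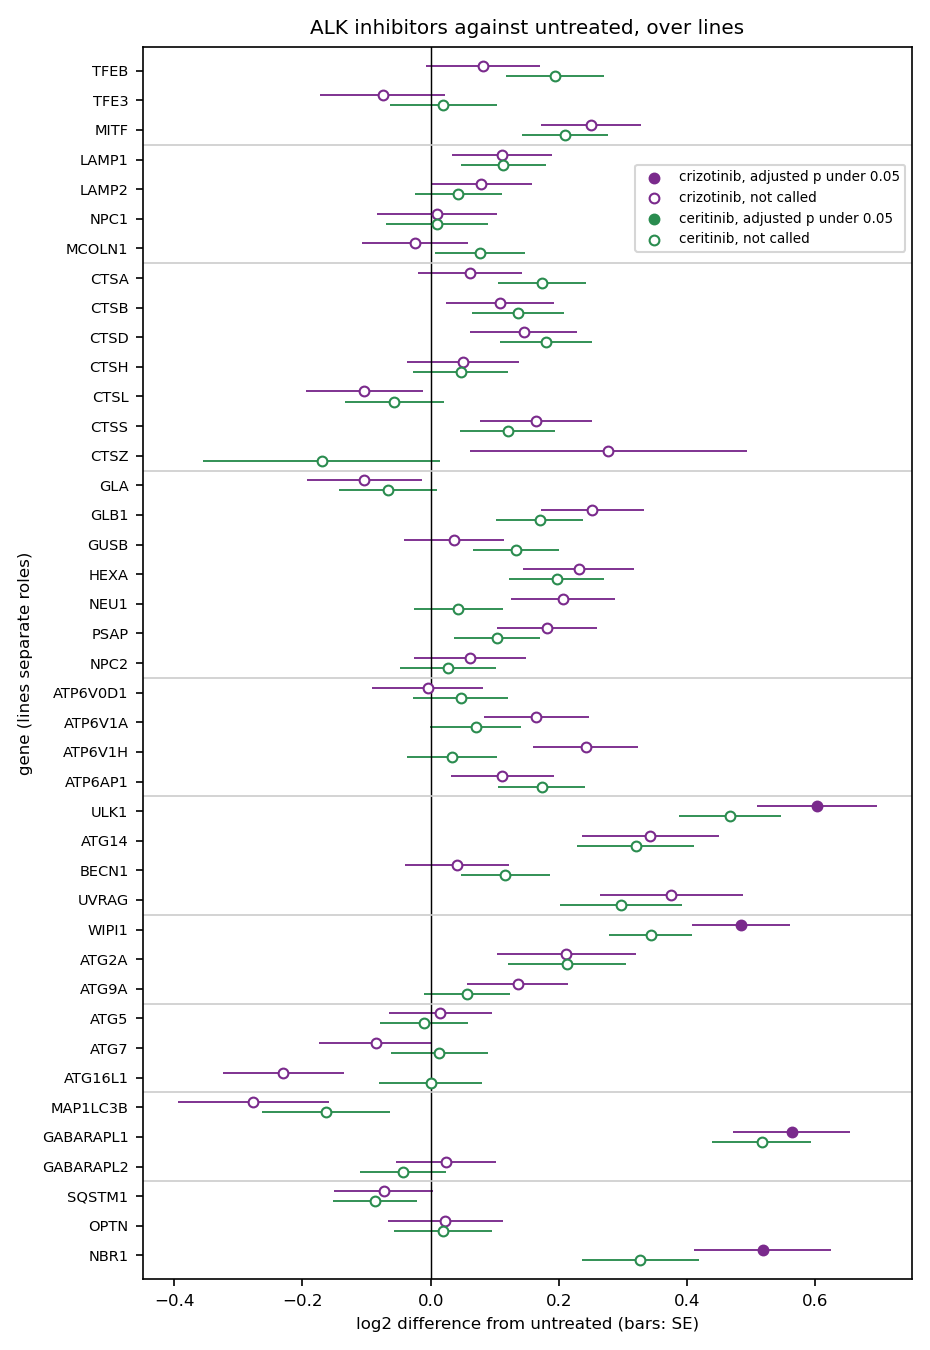
Log2 difference of crizotinib (purple) and ceritinib (green) from untreated cells for each of the 41 genes, from the additive limma model over 8 arrays, with bars of 1 SE. Filled points passed an adjusted p of 0.05. ULK1, GABARAPL1, WIPI1 and NBR1 have the largest crizotinib values, and none passed with ceritinib.

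Ceritinib and crizotinib differ in chemical structure and were given at the same dose and time. Set against each other, limma called no member and no gene (0%). At an unadjusted p under 0.05 there were 637 genes (6.05%) and 2 members, ATG16L1, which was 0.23 higher with ceritinib, and ATP6V1H, which was 0.21 lower. The arrays did not overlap in CTSA, with ceritinib higher (1 member, 2.44%, against 6.94% of all genes) and in NBR1, with ceritinib lower (1 member, 2.44%, against 3.96% of all genes). The largest member difference was that of CTSZ, at -0.45 with a 95% interval from -0.95 to 0.05. It came from parental cells, with 7.78 with ceritinib against 8.54 with crizotinib, while LR2 had 6.82 with ceritinib and 6.79 with crizotinib. For ULK1 the interval was from -0.35 to 0.08, and for GABARAPL1 from -0.26 to 0.16, so differences of these sizes between the agents are not resolved.

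Responses within a line were fitted with both agents as 1 inhibitor condition, which leaves 1 treated array in LR3. limma called no member and no gene in any line (0%). At an unadjusted p under 0.05, the LR2 response held 4 members and 1015 genes (9.64%), that of LR3 2 members and 499 genes (4.74%), and that of parental cells 8 members and 1849 genes (17.6%). MAP1LC3B was the only 1 of the 8 that was lower in treated parental cells, with 8.54 and 8.54 treated against 8.99 untreated. In LR3 it had 8.83 treated and 8.76 untreated, and the difference between the LR3 and parental responses was 0.52, the highest of the 41 members. The members ran from -0.98 to 0.52 in that difference, with a median of -0.02, the same as for all genes. The LR3 response rests on 1 treated and 1 untreated array. CTSZ had responses of -0.13 in LR2, -0.50 in LR3 and 0.48 in parental cells. Neither difference between lines passed, and for all genes limma called none in either difference, with 251 (2.38%) at an unadjusted p under 0.05 for LR2 and 505 (4.8%) for LR3.

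The 41 members had 133 probe sets, of which 117 were above the floor. The 6 members with a single probe set were ATP6V1H, CTSL, CTSZ, GUSB, NEU1 and ULK1. Fitting all 23773 probe sets one by one, an alternative added after the data were seen, showed where probe sets of a gene disagree. LAMP2, which has splice forms with different cytoplasmic tails and lines the lysosome, had 9 probe sets, of which 8 were above the floor. The 5 brightest differed between LR2 and parental cells by -0.12 to 0.02 and were not called, while 3 fainter ones were called higher in LR2. Probe set 11741054_s_at had 6.94, 6.82 and 6.61 in LR2, 6.00 and 5.83 in LR3, and 5.74, 5.89 and 5.81 in parental cells. Each LR2 array was above every array of the other lines. It rose by 0.98 ± 0.09 in LR2 (adjusted p = 0.000469), 11741053_a_at by 0.81 ± 0.09 (adjusted p = 0.00124) and 11742684_a_at by 0.70 ± 0.13 (adjusted p = 0.00747), and none of the 3 passed in LR3. Which LAMP2 transcripts each probe set reads is not given in the sources used here, so the levels of single splice forms are not stated.

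**Figure D5:**
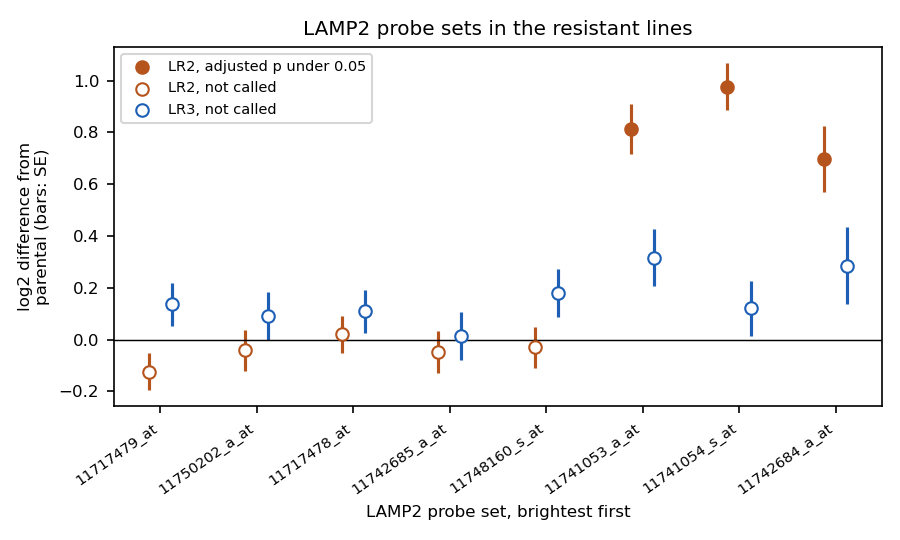
Log2 difference of LR2 (brown) and LR3 (blue) from parental cells for 8 LAMP2 probe sets, ordered from the brightest, with bars of 1 SE. The 5 brightest lie near 0 in LR2, and 3 of the faintest lie between 0.70 and 0.98 there.

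A wider list of 143 other genes of these pathways gave 115 tested. In LR2, limma called 17 of 115 higher and 15 lower (27.8%, against 22.5% of all genes), with the glycosidases FUCA1 (-0.83 ± 0.08) and GALC (-0.82 ± 0.09), which remove fucose and galactose, and the inducible membrane protein LAMP3 (0.72 ± 0.10) as the largest. In LR3, 17 were higher and 9 lower (22.6%, against 21.6% of all genes). The largest were SUMF1 (-0.69 ± 0.10), which activates lysosomal sulfatases, LAMP3 (-0.66 ± 0.11) and the V-ATPase subunit ATP6V1E1 (0.62 ± 0.08). Between LR3 and LR2, 9 were higher and 11 lower in LR3 (17.4%, against 19.6% of all genes), led by LAMP3 (-1.39 ± 0.11), FUCA1 (0.79 ± 0.09) and SUMF1 (-0.71 ± 0.10).

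Among all genes tested, 12.8% were called higher and 9.68% lower in LR2, and 9.53% higher and 12.1% lower in LR3, and several of the small groups lie near these shares. By group, the hydrolases had 3 higher and 6 lower of 27 in LR2 and 5 higher and 4 lower in LR3. The V-ATPase subunits had 3 higher and 1 lower of 13 in LR2, and 2 higher and none lower in LR3. The autophagy core genes had 5 higher and 5 lower of 28 in LR2, and 7 higher and 2 lower in LR3. The membrane and sorting genes had 4 higher and 1 lower of 21 in LR2, and none higher and 3 lower in LR3. The receptors had 1 higher and 1 lower of 9 in LR2, and 2 higher and none lower in LR3. Of the mTORC1 and TFEB regulators, 1 of 17 was higher in each line, and 1 was lower in LR2. With crizotinib, 5 of 115 were higher and none lower (4.35%, against 3.76% of all genes). The largest were FNIP1 (0.79 ± 0.12), a folliculin partner in mTORC1 control of the TFEB family, RB1CC1 (0.69 ± 0.11), a scaffold of the ULK1 complex, and the beta-mannosidase MANBA (0.63 ± 0.11). With ceritinib none of the 115 was called.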

How the data were processed

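The signals were deposited on a log2 scale, per probe set, after RMA, the method named in the submitters' processing notes. Its software and version, and the arrays normalized together, are not given in the sources used here. Of 49395 probe sets, 44988 had 1 gene symbol in the platform's probe table, 1832 had several, 2473 had none and 102 were controls. The table names no genome build, so gene coordinates are not given. No further normalization was applied.

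limma 3.58.1 in R 4.3.3 fitted terms for line and agent over 8 arrays (3 residual degrees of freedom, 4.99 prior). Responses per line used 6 terms, line by inhibitor or none (2 residual, 3.43 prior). Genes above 5.36, the 50th percentile of all values, in at least 2 arrays were tested, and Benjamini-Hochberg adjusted p-values under 0.05 over 10527 genes were called. Because LR3 had no crizotinib array, the fitted estimates can differ from the mean of matched arrays. The model was tested on simulated data. The number of arrays limits the precision.

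Values in every array are given for up to 6 called members with the largest difference in each comparison, and for TFEB, TFE3, MITF, LAMP1, SQSTM1 and MAP1LC3B. Of the other pathway genes, up to 3 called genes are named per comparison. The members and lists were chosen with earlier results of these data known. Alternatives changed the scaling, filter, probe set choice, variance model, covariates and arrays. Promoters are RefSeq's for GRCh38.p14.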

Additional observations from a re-analysis of the deposited data

Results flagged for a closer look

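Probe sets that did not stand for their gene were set against the brightest one, and those that passed limma's test with the opposite sign are listed here. No explanation was tested. For LAMP2 in LR2 against parental cells, the brightest probe set gave -0.12, while 11741053_a_at gave 0.81 ± 0.09 (adjusted p = 0.00124), 11741054_s_at gave 0.98 ± 0.09 (adjusted p = 0.000469) and 11742684_a_at gave 0.70 ± 0.13 (adjusted p = 0.00747). The mean signal of the last is below the floor of 5.36. For LAMP2 in LR3 against LR2, the brightest probe set gave 0.26, while 11741053_a_at gave -0.50 ± 0.11 (adjusted p = 0.0195) and 11741054_s_at gave -0.86 ± 0.11 (adjusted p = 0.00186). For ATG5 in LR3 against LR2, the brightest probe set gave 0.19, while 11757828_s_at gave -0.39 ± 0.09 (adjusted p = 0.0193). The p-values are limma's, adjusted over 23773 probe sets.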

How the results depend on the processing

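Of the members called in a line or agent comparison, HEXA alone changed sign, at 0.143 in LR2 against parental cells when probe sets with the suffixes _x_at and _s_at were set aside (adjusted p = 0.333), which leaves a dim probe set. Leaving out each array in turn gave 4 to 8 called members for LR2 against parental cells, 3 to 16 for LR3 against parental cells, 1 to 11 for LR3 against LR2 and 0 to 5 for crizotinib. The other comparisons stayed at 0, also where 1 array was left in a group and was assumed to vary like the rest. For LR3 against parental cells, 9 members were called with no filter, 9 with no agent term and 0 with the matched arrays alone, which called 0 genes. For LR3 against LR2 the count was 3 with no agent term and 1 with the matched arrays alone. For crizotinib it was 2 without suffixed probe sets, 0 with no line term and 0 with the matched arrays alone. For ceritinib it was 1 member and 61 genes with an intensity trend. Causes were not tested. Quantile normalization and median centring moved none of these counts by over 1.5 times. The median member difference for LR3 against parental cells ran from -0.07 to 0.07. Dim genes such as TFE3 lie near background, which limits their differences.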
